A study of Homo sapiens with 9 samples.

Results

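The human mitochondrial genome carries 37 genes, and all of them are listed in the deposited expression table, where they were picked by the prefix MT- of their names out of 58037 genes. They comprise 13 protein genes, 2 ribosomal RNA genes and 22 transfer RNA genes. RNA was sequenced from established human cell lines of triple-negative breast cancer, each as 1 library per condition, 9 libraries in all. Where values are given in line order, MDA-MB-231 comes first, then MDA-MB-436, then MDA-MB-453. The 3 libraries labelled GSK343 come from cells given an inhibitor of EZH2, the methyltransferase subunit of Polycomb repressive complex 2, and the 3 labelled shEZH2 from cells given a short hairpin RNA against the EZH2 transcript. The 3 controls are labelled as untreated in the sample descriptions, while the table heads their columns as hairpin controls. All cells grew in serum-supplemented DMEM, and the sources used here do not give the dose, the duration or the number of hairpins. Each line stands for 1 replicate of a condition. The p-values of comparisons between labels therefore measure how far a difference varies between lines, not between cultures of a line. Those of comparisons between lines measure how far a line difference varies between labels.

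The labels were first set against the data. EZH2 had 5.77, 7.53 and 7.99 RPKM in line order in the GSK343-labelled libraries, 16.4, 37.4 and 16.2 RPKM in the shEZH2-labelled libraries and 27.4, 38.9 and 42.3 RPKM in the controls. The transcript was therefore lowest under the inhibitor label, not under the hairpin label, which goes against the labels, and the groups are called by their labels throughout. MDA-MB-453 is known as a luminal line. The summed RPKM of the 9 luminal markers was 153 to 174 in the libraries labelled so, against 204 to 259.8 in MDA-MB-231 and 137 to 185 in MDA-MB-436. The 5 mesenchymal markers summed to 517 to 957 RPKM in the libraries labelled MDA-MB-453, 605 to 972 in MDA-MB-231 and 428 to 680.3 in MDA-MB-436. The luminal sum of the libraries labelled MDA-MB-453 thus lay below that of MDA-MB-231 and overlapped that of MDA-MB-436. Counts of limma calls between labels are given with and without these libraries. Shares, ratios and other results are given with them, many as values per line. The deposited RPKM stand for 14757043 to 18283426 reads per library.

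The mitochondrial genome is a circle that is read from both of its strands into long precursors. Transfer RNAs lie between most of the other genes, and cutting them out frees the messenger and ribosomal RNAs. Most of the messenger RNAs, though not all, then receive poly(A) tails. The protein genes encode the core subunits of respiratory complexes I, III and IV and of the ATP synthase, complex V, while the 2 ribosomal RNAs build the mitochondrial ribosome. All other proteins of the organelle, including its polymerase POLRMT, the transcription factors TFAM and TFB2M and the messenger RNA stabilizer LRPPRC, come from the nucleus, so the oxidative phosphorylation system needs both genomes.

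Sequences are given for the features that decide how reads can be assigned (GENCODE release 29 transcripts of GRCh38, written on the strand of the gene). Some neighbouring protein genes overlap, so reads in an overlap cannot be told apart. The 13 protein genes are counted gene by gene and called messenger RNAs below. This does not mean that overlapping genes lie on separate RNA molecules. MT-ATP8 and MT-ATP6 share 46 bases, in capitals with 15 bases on each side, which run from the start codon of MT-ATP6 to the stop codon of MT-ATP8 (plus strand, chrM:8512-8587).
MT-ATP8/MT-ATP6: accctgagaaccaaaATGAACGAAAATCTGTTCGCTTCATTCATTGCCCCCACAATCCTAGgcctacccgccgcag
MT-ND4L and MT-ND4 share 7 bases, shown the same way (plus strand, chrM:10745-10781).
MT-ND4L/MT-ND4: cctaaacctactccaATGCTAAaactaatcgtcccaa
The strands differ in base composition, which is visible in the first 90 bases of MT-ND6, the only protein gene on the minus strand (chrM:14584-14673), beside those of MT-CO2 on the plus strand (chrM:7586-7675), with every G in capitals.
MT-ND6: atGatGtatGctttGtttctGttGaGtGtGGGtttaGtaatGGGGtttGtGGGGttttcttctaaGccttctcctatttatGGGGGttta
MT-CO2: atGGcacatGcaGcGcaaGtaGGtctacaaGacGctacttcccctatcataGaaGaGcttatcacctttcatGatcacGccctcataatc
MT-ND6 is 35.6% G and 7.05% C over its whole length, against 6.28% to 16.2% G and 29.5% to 36.0% C among the 12 plus-strand protein genes.
Of the 13 protein genes, 6 have a length that is no multiple of 3. They end in a partial stop codon, which the poly(A) tail completes, so that the annotated gene stops where the tail begins. The last 18 bases of MT-ND1 (chrM:4245-4262), MT-CO3 (chrM:9973-9990) and MT-ND4 (chrM:12120-12137) show this, with the partial codon in capitals.
MT-ND1: cattccccctcaaaccTA
MT-CO3: tctattgatgagggtctT
MT-ND4: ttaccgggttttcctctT
Of the other 3 such genes, MT-ND2, MT-ND3 and MT-CYB, each also ends in a single T beyond whole codons. The transfer RNA genes are 59 to 75 bases long, and 2 of them show the range of what was counted: MT-TY (tyrosine, minus strand, chrM:5826-5891) was the most abundant in these data, while MT-TK (lysine, plus strand, chrM:8295-8364) was listed at 0 in all 9 libraries.
MT-TY: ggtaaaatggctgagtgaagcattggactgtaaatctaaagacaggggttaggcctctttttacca
MT-TK: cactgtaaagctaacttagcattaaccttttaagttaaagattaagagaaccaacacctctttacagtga

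Mitochondrial transcripts were among the most abundant in every library. They took 14 or 15 of the 20 highest RPKM values and 7 to 10 of the 10 highest. MT-CO2, subunit 2 of cytochrome c oxidase, was the most abundant gene of all in 6 libraries, the 16S ribosomal RNA MT-RNR2 in the shEZH2-labelled library of MDA-MB-231, and the nuclear ferritin gene FTL in both labelled libraries of MDA-MB-436. Mean RPKM over the 9 libraries, a level per length, ran from 5847 for MT-CO2, 4779 for MT-RNR2, 4513 for MT-ND4 and 4359 for MT-CO1 at the high end to 1532 for MT-ND5, 1527 for MT-ND6 and 971 for the 12S ribosomal RNA MT-RNR1 at the low end of the messenger and ribosomal RNAs. These levels rest on 7680 to 184743 reads per gene and library, so counting error is small beside the differences between libraries. Neighbouring genes could differ in listed RPKM: MT-ATP8 averaged 3338 RPKM and the overlapping MT-ATP6 2775 RPKM. Reads in the bases that these genes share cannot be told apart, so their gap is not a measured difference between transcripts. The 2 ribosomal RNAs, neighbours but for MT-TV, differed 3.30-fold to 7.37-fold.

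**Figure D1:**
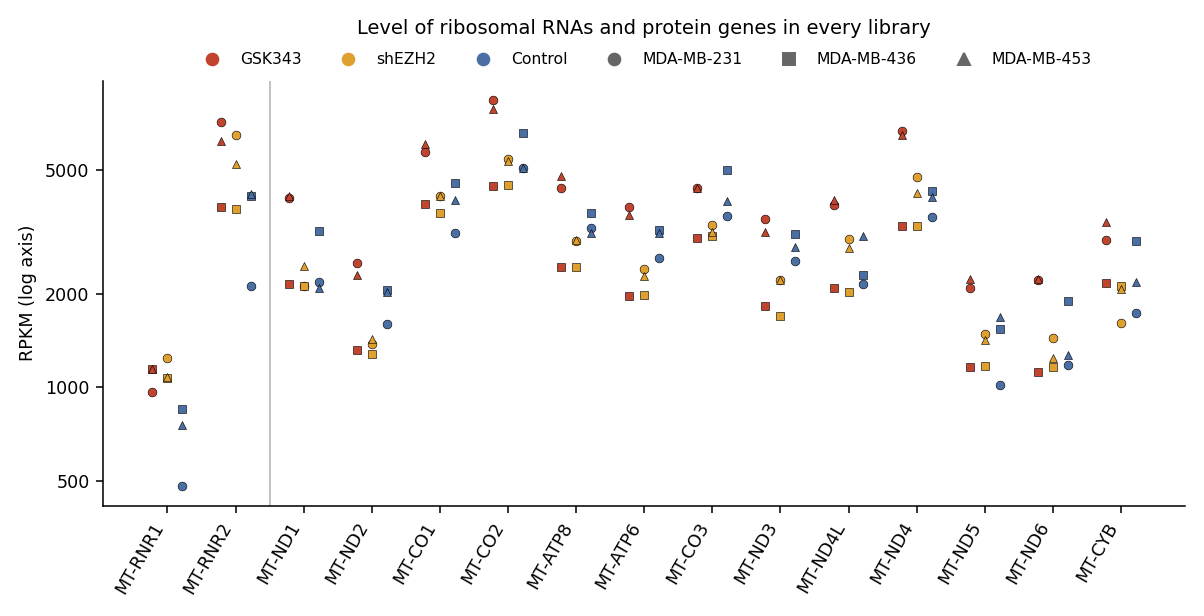
RPKM (log axis) of the 2 ribosomal RNAs and the 13 protein genes, in the order of their genome, with 1 point per library. Colour gives the label, from left to right GSK343, shEZH2 and Control, and shape gives the line. MT-RNR1 lies between 480.3 and 1246 RPKM with all 3 controls lowest, while for protein genes such as MT-CO2 the squares of MDA-MB-436 are ordered opposite to the circles of MDA-MB-231.

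The part of each library taken by mitochondrial genes differed between labels in opposite ways in different lines. Their share of the RPKM sum was 21.6%, 13.7% and 22.5% in line order in the GSK343-labelled libraries, 16.8%, 13.5% and 16.0% in the shEZH2-labelled libraries and 14.0%, 17.6% and 17.4% in the controls. Within MDA-MB-231 both labelled libraries were above their control, within MDA-MB-436 both were below it, and the libraries labelled MDA-MB-453 were split. Here and below, both labelled libraries of a line are set against its single control, so their signs are not independent. The GSK343-labelled libraries averaged 19.3% ± 4.86, the shEZH2-labelled ones 15.5% ± 1.75 and the controls 16.3% ± 2.02 (SD, n = 3 each).

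The difference between GSK343-labelled libraries and controls was 2.97 percentage points (7.68, -3.88 and 5.12 by line, exact two-sided sign-flip test over lines, p = 0.5), and that between shEZH2-labelled libraries and controls was -0.84 points (2.88, -4.06 and -1.34, exact p = 0.75). The share was 3.81 points higher under the GSK343 label than under the shEZH2 label, in 3 of 3 lines (4.80, 0.182 and 6.47, exact p = 0.25). With 3 pairs the sign-flip test cannot give less than 0.25. Over the family of 56 tests of shares and ratios the adjusted p was 0.913 for these 3. Even with every test at its smallest possible p, no adjusted p of that family could come under 0.05. The adjustment therefore cannot decide whether shares or ratios differ. Counted as reads instead of RPKM, mitochondrial genes held between 3.19% (95% Wilson interval 3.19% to 3.20%, counting error only) in the control of MDA-MB-231 and 6.005% (5.99% to 6.02%) in that line under the GSK343 label. RNA was taken from whole cultures, so a different make-up of cells and a different amount of mitochondrial RNA per cell cannot be told apart.

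**Figure D2:**
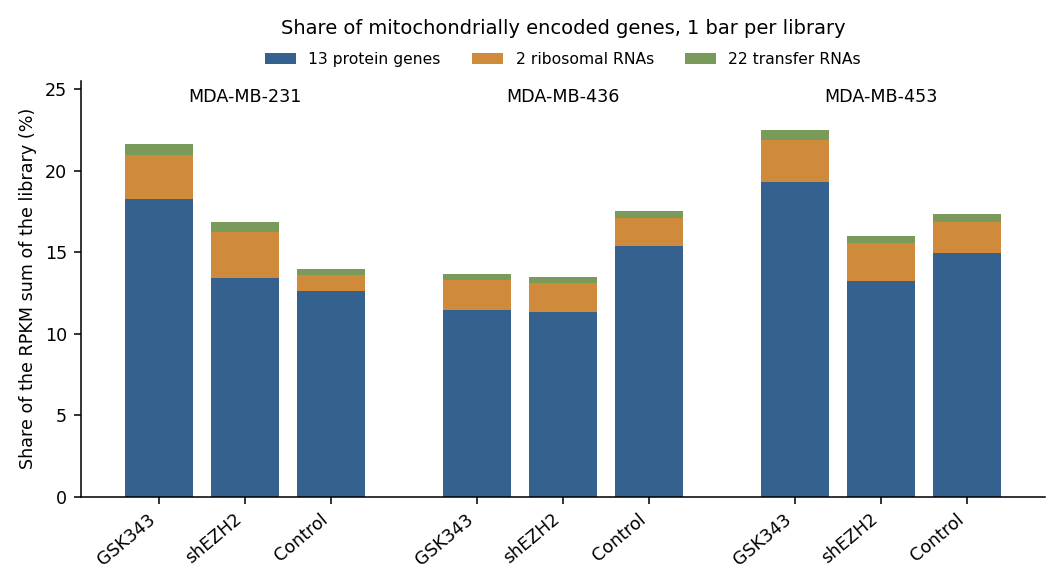
Share of the RPKM sum (%) held by mitochondrially encoded genes, 1 bar per library, split into protein genes, ribosomal RNAs and transfer RNAs. In MDA-MB-231 the GSK343 bar (21.6%) is the tallest, ahead of shEZH2 (16.8%) and Control (14.0%), while in MDA-MB-436 the control bar (17.6%) is the tallest.

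The ribosomal RNAs were the only class whose share was above the control in all 6 comparisons within lines. They held 2.71%, 1.83% and 2.60% of the RPKM sum in line order in the GSK343-labelled libraries, 2.86%, 1.79% and 2.33% in the shEZH2-labelled libraries and 0.977%, 1.73% and 1.91% in the controls. In MDA-MB-436 the gap was 0.102 points under the GSK343 label and 0.053 points under the shEZH2 label, while in MDA-MB-231 it was 1.73 and 1.88 points. The summed RPKM of the ribosomal RNAs in MDA-MB-436 was not higher, at 4939 (GSK343) and 4806 (shEZH2) against 4989 in the control. The RPKM sum of all genes was also lower there, at 269156 and 269181 against 288002.

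MT-RNR1 (ENSG00000211459.2, chrM:648-1601, plus strand), the RNA of the small mitochondrial ribosomal subunit, had 968, 1147 and 1146 RPKM in the GSK343-labelled libraries and 1246, 1068 and 1078 RPKM in the shEZH2-labelled libraries of the same lines, against 480.3, 854 and 754 RPKM in the controls. All 6 labelled libraries were above all 3 controls. On the scale of log2(RPKM + 1) the difference was 0.74 ± 0.45 for the shEZH2 label (95% interval, limma, adjusted p = 0.041, higher in 3 of 3 lines) and 0.71 ± 0.39 for the mean of both labels (limma, adjusted p = 0.0211), so MT-RNR1 rose in both tests. For the GSK343 label it was 0.68 ± 0.45 and did not pass (limma, adjusted p = 0.0635). The call for the mean of both labels ended without the libraries labelled MDA-MB-453 (0.78, adjusted p = 0.146 with limma), without MDA-MB-231 (0.47, adjusted p = 0.124) or without a single library: the control of MDA-MB-231 (0.47), the control labelled MDA-MB-453 (0.78) or the MDA-MB-453 library under the GSK343 label (0.70). The shEZH2 call ended without any single library other than the MDA-MB-436 control and its GSK343-labelled counterpart (0.50 to 0.88), and under median-ratio scaling both calls ended (0.63 for the shEZH2 label and 0.60 for the mean).

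MT-RNR2 (ENSG00000210082.2, chrM:1671-3229, plus strand), the RNA of the large subunit, had 7133, 3791 and 6210.4 RPKM in the GSK343-labelled libraries and 6481, 3738 and 5222 RPKM in the shEZH2-labelled libraries, against 2123, 4136 and 4175 RPKM in the controls. The control of MDA-MB-231 was the lowest of the 9 libraries, and in MDA-MB-436 both labelled libraries lay below their control. The log2 differences of 0.73 ± 0.68 for the GSK343 label and 0.60 ± 0.68 for the shEZH2 label did not pass (limma, adjusted p = 0.165 and 0.234). MT-RNR2 had the smallest p among the mitochondrial genes in the F-test for a response that differs between lines (0.00184), but with adjusted p = 0.094 (limma) it did not pass, and 0 of the 31 genes tested did so, with 3 at an unadjusted p under 0.05. That test called 0.0231% of all 12965 genes. It sets the responses against the gap between the GSK343-labelled and shEZH2-labelled libraries of a line, since there are no replicates.

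Set against the messenger RNAs of the same library, a ratio that needs no scaling between libraries, the ribosomal RNAs were higher in every labelled library than in the control of its line. Their RPKM came to 14.9%, 16.0% and 13.5% of that of the 13 protein genes in the GSK343-labelled libraries, 21.3%, 15.7% and 17.6% in the shEZH2-labelled libraries and 7.76%, 11.3% and 12.8% in the controls. The 6 labelled libraries lay above all 3 controls. In MDA-MB-436 the ratio rose with a lower sum of the protein genes, 30880 (GSK343) and 30517 (shEZH2) against 44244 RPKM in the control. The sum of the ribosomal RNAs was not higher there. The log2 ratio differed from the control by 0.94, 0.50 and 0.08 in line order under the GSK343 label, and by 1.46, 0.48 and 0.46 under the shEZH2 label. The mean of both labels was 0.65 above the control (exact permutation test moving the control label within each line, p = 0.037, the smallest this test can give). Its adjusted p over the family was 0.913, and no test of that family could pass. The mean difference remained 0.38 to 0.85 when a line was left out. The sources used here do not give the RNA selection, and its bearing on this ratio was not tested. The ratio of MT-RNR2 to MT-RNR1 was 7.37, 3.30 and 5.42 in the GSK343-labelled libraries, 5.20, 3.50 and 4.85 in the shEZH2-labelled libraries and 4.42, 4.84 and 5.54 in the controls, with no common direction over the lines (exact p of 1 and 0.75).

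Within a line the messenger RNAs lay together on one side of the control under the GSK343 label, and the side differed between lines. Under the GSK343 label all 13 were above the control in MDA-MB-231 (median ratio of RPKM 1.72, from 1.23 for MT-CO3 to 2.04 for MT-ND5), all 13 were below it in MDA-MB-436 (median 0.674, from 0.586 for MT-ND3 to 0.908 for MT-ND4L), and all 13 were above it in the libraries labelled MDA-MB-453 (median 1.51, from 1.10 for MT-CO3 to 1.98 for MT-ND1). This order of signs was found for 13 of 13 messenger RNAs and for 7.84% of all 12965 genes tested, and it was the same under each of the 3 other scalings. The 13 genes share precursors and libraries, so they are not independent of each other. Under the shEZH2 label 6 of 13 were above the control in MDA-MB-231 (median ratio 0.966), 0 of 13 in MDA-MB-436 (median 0.671, 0.545 to 0.884) and 4 of 13 in the libraries labelled MDA-MB-453 (median 0.948). MT-CO1, MT-CO2, MT-ND4L, MT-ND4, MT-ND5 and MT-ND6 were above the control under both labels in MDA-MB-231 and below it under both in MDA-MB-436, a pattern held by 6.89% of all genes tested.

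**Figure D3:**
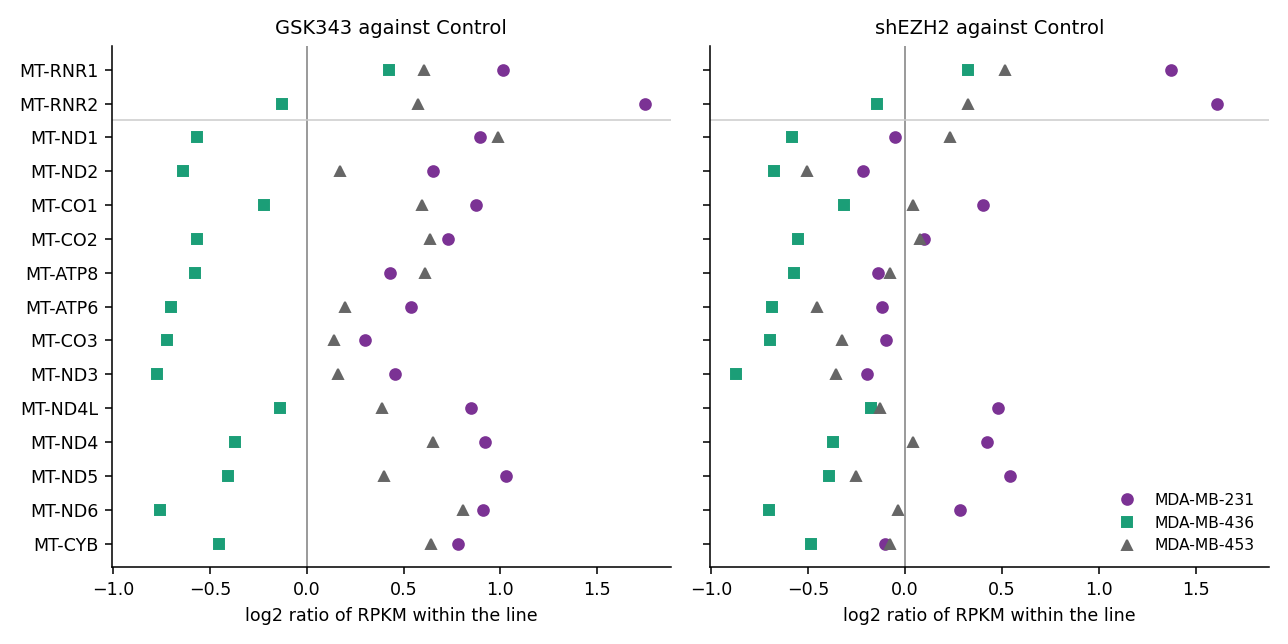
log2 ratio of RPKM to the control of the same line for the 2 ribosomal RNAs and the 13 protein genes, under the GSK343 label (left) and the shEZH2 label (right), with 1 point per line. Under the GSK343 label the squares of MDA-MB-436 lie left of 0 for all 13 protein genes, and the circles of MDA-MB-231 and triangles of MDA-MB-453 lie right of it.

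With the signs split between lines, no messenger RNA passed the test over the 3 lines. Of the 31 mitochondrial genes tested (the 13 protein genes, both ribosomal RNAs and 16 transfer RNAs reached 1 RPKM in at least 3 libraries), 0 passed for the GSK343 label with limma, where 7.85% of all genes tested did, and 4 had an unadjusted p under 0.05. For the shEZH2 label 1 of 31 passed, MT-RNR1, beside 10.6% of all genes, and for the mean of both labels again 1 of 31, MT-RNR1, beside 16.5%. The median log2 fold change of the 13 messenger RNAs was 0.32 for the GSK343 label and -0.15 for the shEZH2 label, where all genes tested had medians of 0.06 and 0.05. Across all genes the GSK343 calls were 810 higher and 208 lower, and 521 higher and 442 lower under median-ratio scaling, which moved the median of all genes by less than 0.1.

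A single line decided the count for the GSK343 label. Without the 3 libraries of MDA-MB-436, 21 of 30 mitochondrial genes had an unadjusted p under 0.05 with limma. Of the 30, 14 passed after adjustment, all higher, where 8.18% of all genes tested passed. They were 7 messenger RNAs, among them MT-ND1 (0.94 ± 0.39, adjusted p = 0.00271) and MT-ND6 (0.86 ± 0.41, adjusted p = 0.00802), both ribosomal RNAs, MT-RNR2 at 1.16 ± 0.49 (adjusted p = 0.00315) and MT-RNR1 at 0.81 ± 0.46 (adjusted p = 0.0251), and 5 transfer RNAs. That fit rests on MDA-MB-231 and on the libraries labelled MDA-MB-453, whose marker genes are described above. Without the libraries labelled MDA-MB-453, 0 of 30 passed and 1 had an unadjusted p under 0.05 (0.369% of all genes passed), and without MDA-MB-231 1 of 31 passed, the transfer RNA MT-TE, which was lower and rests on 3 to 28 reads per library (4.06% of all genes, and likewise for the shEZH2 label with 3.99% and the mean of both with 9.37%). For the shEZH2 label 2 of 30 passed without MDA-MB-436, the 2 ribosomal RNAs (10.6% of all genes), and for the mean of both labels 7 of 30 (14.5%). In these limma fits 5 and 13 of the 30 had an unadjusted p under 0.05. Without the libraries labelled MDA-MB-453, 0 of 30 passed for the shEZH2 label (0.169% of all genes) and for the mean of both (1.45%), with 2 at an unadjusted p under 0.05 in each limma fit.

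By complex, the same split between lines under the GSK343 label was found in each. Complex I, the NADH dehydrogenase, has 7 subunits in this genome. MT-ND1, at the base of its membrane arm, had 4058, 2144 and 4128 RPKM in the GSK343-labelled libraries, 2111, 2119 and 2448 RPKM in the shEZH2-labelled libraries and 2186, 3179.6 and 2083 RPKM in the controls. Its log2 difference for the GSK343 label, 0.44 ± 0.59, was the largest among the messenger RNAs, and its interval still held 0 (limma, adjusted p = 0.334). MT-ND4, a proton-pumping subunit, had 6662, 3313 and 6458 RPKM, 4731, 3311 and 4231 RPKM and 3523, 4283 and 4107 RPKM under the GSK343, shEZH2 and Control labels. MT-ND5, another pump, had 2080.1, 1159 and 2223 RPKM, 1485, 1174 and 1419 RPKM and 1020.0, 1539 and 1689 RPKM in the same order. For both, MDA-MB-231 was above its control under either label and MDA-MB-436 was below. MT-ND2 and MT-ND3 were below the control in all 3 lines under the shEZH2 label (log2 difference -0.47 ± 0.50 and -0.48 ± 0.50, limma, adjusted p = 0.201 and 0.194, not passing).

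Cytochrome b, MT-CYB, is the single subunit of complex III encoded here and had 2982, 2163 and 3405 RPKM in the GSK343-labelled libraries, 1615, 2115 and 2071 RPKM in the shEZH2-labelled libraries and 1733, 2960.2 and 2186 RPKM in the controls. MT-CO1, the catalytic subunit of complex IV, had 5729, 3888 and 6053 RPKM, 4133, 3643 and 4121 RPKM and 3131, 4528 and 4001 RPKM under the GSK343, shEZH2 and Control labels. MT-CO2, which takes electrons from cytochrome c, had 8384, 4435 and 7871 RPKM, 5409, 4481 and 5339 RPKM and 5061, 6572 and 5069 RPKM in the same order. In these 3 genes the MDA-MB-436 control was the highest of the controls. MT-CO3 had the lowest mean difference of the messenger RNAs under the GSK343 label (0.30, -0.72 and 0.14 on the log2 scale in line order, mean -0.09), and was below the control in all 3 lines under the shEZH2 label (-0.10, -0.70 and -0.33). The complex V subunits MT-ATP6 and MT-ATP8, which share 46 bases, were also below the control in all 3 lines under the shEZH2 label (-0.12, -0.69 and -0.45 for MT-ATP6 and -0.14, -0.58 and -0.08 for MT-ATP8), without passing (limma, adjusted p = 0.257 and 0.49). The small mean of MT-ATP6 under the GSK343 label (0.01) turned negative under each of the 3 other scalings, and that of MT-ND2 (0.06) under 2 of them.

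GSK343-labelled and shEZH2-labelled libraries were then compared directly, without the controls. In MDA-MB-231 and in the libraries labelled MDA-MB-453 all 13 messenger RNAs were higher under the GSK343 label (median log2 ratio 0.62 and 0.65), while in MDA-MB-436 7 were higher and 6 lower (median 0.00097). The numbers in MDA-MB-436 and only there depend on the scaling: 5 were higher after median-ratio scaling. Of the 31 genes tested 12 were higher in all 3 lines, beside 14% of all genes tested. None was lower in all 3, beside 13.4% of all genes tested. The mitochondrial genes share precursors and libraries, so they are not independent of each other. Limma called 0 of the 31, as it called 0% of all genes tested, and 7 of the 31 had an unadjusted p under 0.05, among them MT-CYB (0.54 ± 0.51) and MT-ND2 (0.53 ± 0.50). Without MDA-MB-436 1 of 30 passed, MT-TI, beside 0.0902% of all genes, and 22 of the 30 had an unadjusted p under 0.05. Without the libraries labelled MDA-MB-453 0 of 30 passed, beside 0.0161% of all genes, and 2 had an unadjusted p under 0.05. Without MDA-MB-231 0 of 31 passed, beside 0% of all genes, and 1 had an unadjusted p under 0.05.

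Each messenger RNA was also expressed as a share of the summed RPKM of the 13 and set against the control of its line. The 6 comparisons share 3 controls, so they are not independent, and the counts are a description with no test. MT-CO1 and MT-ND4 took a larger share in 6 of 6 comparisons. MT-CO1 made up 10.5%, 12.6% and 11.1% of the pool in the GSK343-labelled libraries, 11.4%, 11.9% and 11.5% in the shEZH2-labelled libraries and 9.33%, 10.2% and 10.4% in the controls. MT-ND4 made up 12.2%, 10.7% and 11.8%, then 13.1%, 10.8% and 11.8%, and in the controls 10.5%, 9.68% and 10.6%. MT-ND2, MT-ATP6, MT-CO3 and MT-ND3 took a smaller share in 6 of 6. MT-ND3 made up 6.40%, 5.91% and 5.81% of the pool in the GSK343-labelled libraries, 6.13%, 5.57% and 6.21% in the shEZH2-labelled libraries and 7.59%, 7.04% and 7.35% in the controls. MT-CO3 made up 8.02%, 9.81% and 8.04%, then 9.16%, 10.1% and 8.86%, and in the controls 10.6%, 11.3% and 10.3%. MT-ATP6, MT-CO3 and MT-ND3 follow each other on the plus strand, with only the glycine transfer RNA MT-TG between MT-CO3 and MT-ND3. The other 7 genes had mixed signs, and a share must fall for some genes when it rises for others.

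**Figure D4:**
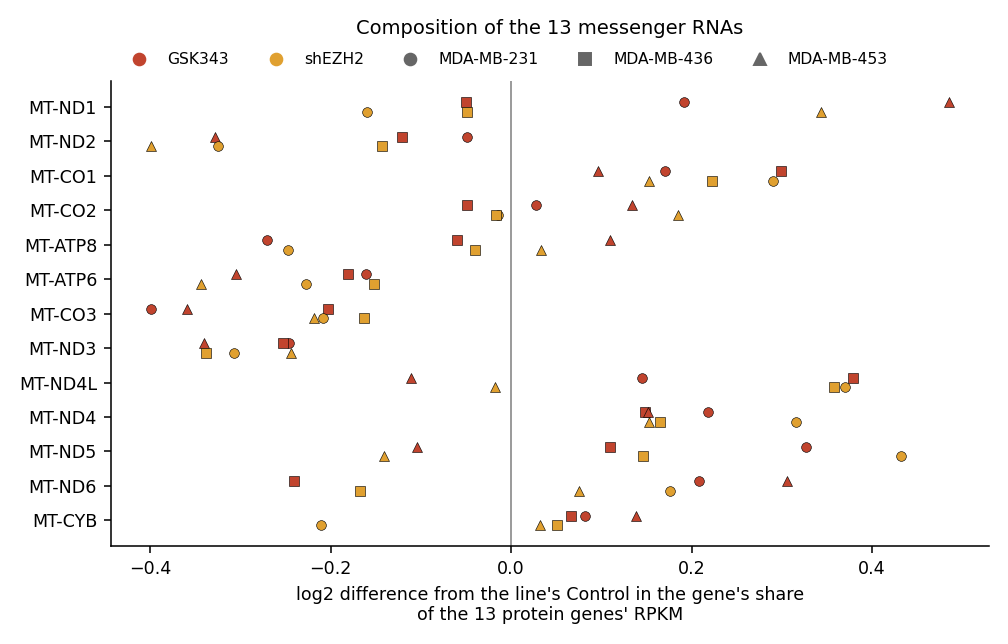
log2 difference from the control of the line in the share that each of the 13 protein genes holds of their summed RPKM, with colour for the label and shape for the line. MT-CO1 and MT-ND4 lie right of 0 in all 6 comparisons, and MT-ND2, MT-ATP6, MT-CO3 and MT-ND3 lie left of 0 in all 6.

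MT-ND6, transcribed from the other strand, had 2213, 1116 and 2228 RPKM in the GSK343-labelled libraries, 1437, 1160.1 and 1243 RPKM in the shEZH2-labelled libraries and 1178, 1889 and 1273 RPKM in the controls. Relative to the summed RPKM of the other 12 it stood at 4.23%, 3.75% and 4.25%, then 4.13%, 3.95% and 3.60%, and in the controls at 3.64%, 4.46% and 3.41%. This was above the control in MDA-MB-231 and MDA-MB-453 and below it in MDA-MB-436 under both labels, the same split that the plus-strand genes showed in level under the GSK343 label (exact p = 0.75 for each label). The sources used here do not give the strand setting of the counting, so reads of MT-ND6 and of the 8 minus-strand transfer RNAs cannot be told from antisense reads. They do not give the RNA selection either, and its bearing on the level of MT-ND6 relative to the others was not tested.

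Transfer RNAs held 0.368% to 0.699% of the RPKM sum. Of the 22 genes 16 passed the filter on low values, and 5 (MT-TQ, MT-TA, MT-TN, MT-TS1 and MT-TK) were listed at 0 in all 9 libraries, 4 of them on the minus strand. The remaining gene, MT-TD, never exceeded 1.83 RPKM. The 6 most abundant were MT-TY, MT-TP, MT-TL1, MT-TF, MT-TC and MT-TI, which carry tyrosine, proline, leucine, phenylalanine, cysteine and isoleucine. MT-TY, whose sequence stands above, had 656, 319 and 536 RPKM in the GSK343-labelled libraries, 677, 343 and 397 RPKM in the shEZH2-labelled libraries and 346, 473 and 327 RPKM in the controls, again with MDA-MB-231 above and MDA-MB-436 below the control under both labels. MT-TF, which lies just before MT-RNR1, had 149, 161 and 175 RPKM, 114, 104 and 144 RPKM and 83.2, 142 and 108 RPKM under the GSK343, shEZH2 and Control labels. It was above the control in all 3 lines under the GSK343 label (0.57 ± 0.40, limma, adjusted p = 0.0751, not passing). MT-TP had 706, 223 and 485 RPKM, 459, 250.3 and 396 RPKM and 340.5, 288 and 465 RPKM in the same order. MT-TL1, which lies just after MT-RNR2, had 214, 123 and 206 RPKM, 99.9, 104 and 137 RPKM and 70.01, 149 and 156 RPKM. MT-TC ranged from 60.4 to 110.2 RPKM over the 9 libraries and MT-TI from 15.9 to 57.6 RPKM. MT-TI was below the control in all 3 lines under the shEZH2 label (-0.77 ± 0.62, limma, adjusted p = 0.106, not passing). Reads of these genes number 20 to 817 per library, and such short genes can also collect reads of uncut precursors, which was not tested.

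The lines were then compared over the 3 labels. A line has 1 library per label, so the spread behind these p-values is that of the line difference over labels, not over cultures. For MDA-MB-231 minus MDA-MB-436 limma called 4 of 31, where it called 63.4% of all genes tested, and all 4 were transfer RNAs that were higher in MDA-MB-231: MT-TG (1.22 ± 0.55), MT-TS2 (1.18 ± 0.72), MT-TP (0.92 ± 0.50) and MT-TT (0.89 ± 0.74), with adjusted p = 0.00117 to 0.0363. No messenger or ribosomal RNA was called, with log2 differences of -0.23 to 0.45 for the messenger RNAs, and 5 of the 31 had an unadjusted p under 0.05. For MDA-MB-453 minus MDA-MB-231 2 of 31 passed beside 31.3% of all genes, MT-TW (1.72 ± 0.90) and MT-TH (-1.09 ± 0.77). For MDA-MB-453 minus MDA-MB-436 7 of 31 passed beside 34.7%, all higher in the libraries labelled MDA-MB-453: 6 transfer RNAs and MT-ND4L, which had 3854, 2087 and 4009 RPKM in line order in the GSK343-labelled libraries, 2990.3, 2032 and 2799 RPKM in the shEZH2-labelled libraries and 2145, 2299 and 3058 RPKM in the controls (0.60 ± 0.47, limma, adjusted p = 0.046). The transfer RNAs in these calls were named after their values were seen, and several rest on few reads: 0 to 6 per library for MT-TW, 1 to 6 for MT-TS2, 5 to 22 for MT-TT, 6 to 26 for MT-TH and 8 to 30 for MT-TG. Single libraries decided these counts. For MDA-MB-453 minus MDA-MB-436, 0 passed without the control labelled MDA-MB-453, 1 was lower and 0 higher without the MDA-MB-436 library under the GSK343 label, 1 passed without the MDA-MB-453 library under that label and 4 without the MDA-MB-231 library under the shEZH2 label, and the call of MT-ND4L ended without any of the 3 shEZH2-labelled libraries as well. For MDA-MB-453 minus MDA-MB-231, 0 passed without the control labelled MDA-MB-453, 1 without either other control, 6 without the MDA-MB-231 library under the GSK343 label and 3 or 4 without that of MDA-MB-436 or any shEZH2-labelled library. For MDA-MB-231 minus MDA-MB-436, 14 passed without the control of MDA-MB-436, 8 without that of MDA-MB-231 and 7 without the MDA-MB-436 library under the GSK343 label, of which 4 were lower. Those 3 fits called 3545, 3309 and 3317 of all genes higher and 4447, 4290 and 3662 lower (12799, 12856 and 12695 tested). With a library left out, 1682 to 2393 of all genes were higher and 1132 to 2264 lower for MDA-MB-453 minus MDA-MB-436. For MDA-MB-453 minus MDA-MB-231 the ranges were 1744 to 2909 and 785 to 1789. Median-ratio scaling moved the median of all genes for MDA-MB-453 minus MDA-MB-231 to -0.05 from 0.05. The spread of the line means in the mitochondrial share was 1.90 percentage points (SD of 3 means, exact permutation test, p = 0.444). The libraries labelled MDA-MB-453 lay above both other lines for 8 of 13 messenger RNAs under the GSK343 label, for 3 under the shEZH2 label and for 2 in the controls, and between them for 5, 10 and 9.

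Copies of mitochondrial sequence in the nuclear genome can take or give reads, and the listed levels of some of them differed widely between lines. MTCO1P12, a copy of MT-CO1, had 175, 10.1 and 101 RPKM in line order in the GSK343-labelled libraries, 130.3, 7.9 and 89.97 RPKM in the shEZH2-labelled libraries and 99.5, 12.1 and 43.6 RPKM in the controls. MTND4P12, a copy of MT-ND4, had 91.7, 1.71 and 45.8 RPKM, 67.6, 2.12 and 37.00 RPKM and 45.1, 2.86 and 28.4 RPKM under the GSK343, shEZH2 and Control labels. In both, MDA-MB-231 was highest and MDA-MB-436 lowest under every label, by 3.60 ± 0.54 and 4.38 ± 0.50 on the log2 scale (limma, adjusted p = 1.91e-07 and 1.86e-08), where MT-CO1 and MT-ND4 themselves differed by 0.07 and 0.41. The libraries labelled MDA-MB-453 lay between the other lines under every label. MTATP6P1, a copy of the MT-ATP6 region, had 345, 185 and 320.3 RPKM, 235, 196 and 227 RPKM and 248, 285 and 152 RPKM in the same order and did not pass between MDA-MB-231 and MDA-MB-436 (0.32 ± 0.55). These 3 copies were chosen after their values were seen. Between MDA-MB-231 and MDA-MB-436 limma called 63.4% of all genes tested. Of the copies tested, MTCO1P12, MTND4P12, MTATP8P1 and MTRNR2L12 passed there, all higher in MDA-MB-231, and the others did not. Of 24 such copies 9 passed the filter on low values, and for the mean of both labels 1 of them rose, beside 12.2% of all genes tested, and 0 fell. It was MTRNR2L12, a copy of MT-RNR2 sequence at 0.518 to 4.59 RPKM (0.72 ± 0.47, limma, adjusted p = 0.0411), which was higher in 2 of 3 lines (1.27, -0.14 and 1.04 in line order). The call ended without MDA-MB-231, without the libraries labelled MDA-MB-453 and under median-ratio scaling, with 0 of the copies passing in each, while 4 of 9 rose without MDA-MB-436.

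**Figure D5:**
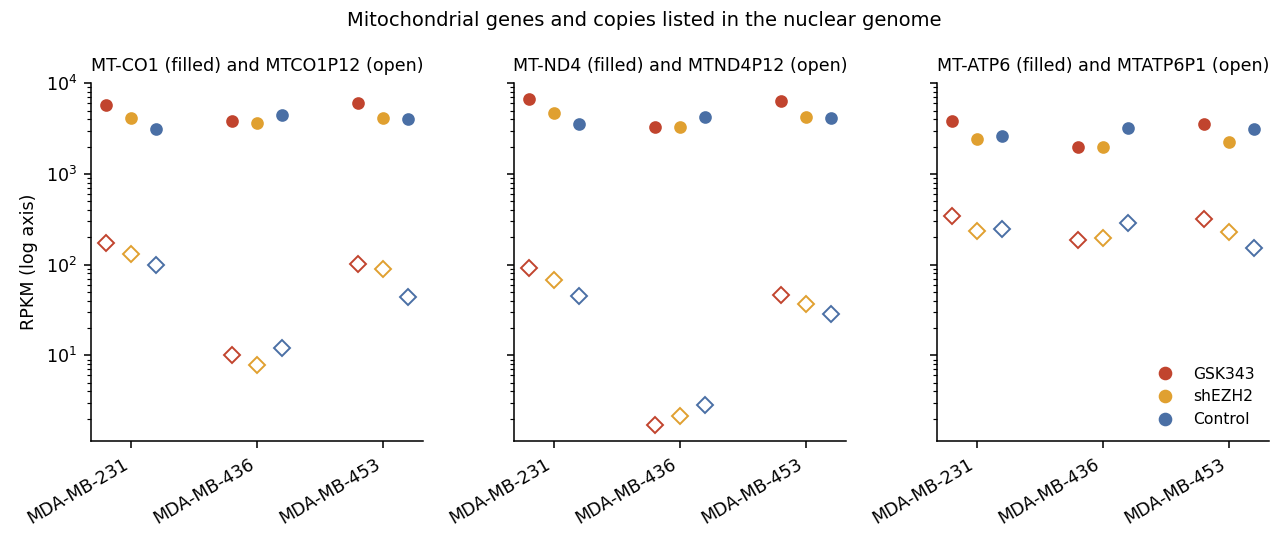
RPKM (log axis) of MT-CO1, MT-ND4 and MT-ATP6 (filled circles) and of the nuclear copies MTCO1P12, MTND4P12 and MTATP6P1 (open diamonds) by line, with colour for the label. MTND4P12 lies between 1.71 and 2.86 RPKM in MDA-MB-436 and between 45.1 and 91.7 RPKM in MDA-MB-231, while MTATP6P1 lies between 152 and 345 RPKM in all 3 lines.

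Nuclear genes that transcribe, process and translate mitochondrial RNA were counted for the mean of both labels, where 12.2% of all genes tested rose and 4.3% fell (1584 and 557 genes) with a median log2 fold change of 0.05. Under median-ratio scaling 1149 rose and 1151 fell, so the larger share of higher calls depends on the scaling. Of 20 genes of mitochondrial transcription and DNA maintenance 2 fell and 0 rose (median -0.08). TFAM, which packages the mitochondrial DNA and starts its transcription, had 11.6, 12.2 and 11.1 RPKM in the GSK343-labelled libraries, 9.01, 12.3 and 10.7 RPKM in the shEZH2-labelled libraries and 15.9, 15.5 and 24.3 RPKM in the controls. All 6 labelled libraries were below all 3 controls, and TFAM fell (log2 fold change -0.67 ± 0.33, limma, adjusted p = 0.0127). TFB2M, the initiation factor that works with the polymerase, had 11.3, 14.3 and 13.6 RPKM, 7.37, 14.8 and 12.6 RPKM and 13.1, 20.1 and 20.9 RPKM under the GSK343, shEZH2 and Control labels (log2 fold change -0.51 ± 0.28, limma, adjusted p = 0.0216). SSBP1, the single-strand DNA binding protein, and the topoisomerase TOP1MT did not pass (-0.40 ± 0.28 and -0.36 ± 0.25, limma, adjusted p = 0.0512 and 0.0528). The polymerase POLRMT did not either (-0.05 ± 0.32), with 8.46, 13.4 and 9.55 RPKM in the GSK343-labelled libraries, 7.74, 13.3 and 10.9 RPKM in the shEZH2-labelled libraries and 10.04, 16.4 and 7.51 RPKM in the controls.

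Of 33 genes of mitochondrial RNA processing, stability and decay 1 fell and 0 rose (median -0.13). That was FASTKD2, which binds the 16S ribosomal RNA and helps to assemble the large subunit (-0.44 ± 0.29, limma, adjusted p = 0.0425). LRPPRC and SLIRP, which together protect the messenger RNAs, did not pass. LRPPRC had 33.6, 35.3 and 36.1 RPKM in the GSK343-labelled libraries, 30.3, 39.1 and 34.2 RPKM in the shEZH2-labelled libraries and 24.6, 42.7 and 52.1 RPKM in the controls (-0.13 ± 0.35). SLIRP had 14.9, 7.2 and 7.06 RPKM, 8.88, 6.26 and 8.28 RPKM and 11.97, 11.6 and 12.4 RPKM in the same order (-0.46 ± 0.36, limma, adjusted p = 0.0788). TRMT10C, a subunit of the enzyme that cuts the 5′ ends of transfer RNAs, and FASTKD3 did not pass (-0.38 and -0.39, limma, adjusted p = 0.0819 and 0.0866).

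Of 33 tested translation genes 5 fell and 0 rose (median -0.16), among them the aminoacyl-tRNA synthetases IARS2 (-0.52 ± 0.27), WARS2 (-0.50 ± 0.31) and YARS2 (-0.45 ± 0.29), with adjusted p = 0.0161 to 0.0391 (limma). Of 78 mitochondrial ribosomal proteins 8 fell and 1 rose (median -0.17). MRPL1, of the large subunit, had 10.7, 8.48 and 6.64 RPKM in the GSK343-labelled libraries, 6.22, 7.81 and 7.31 RPKM in the shEZH2-labelled libraries and 15.3, 13.6 and 17.6 RPKM in the controls, all 6 labelled libraries being below all 3 controls (-0.91 ± 0.34, limma, adjusted p = 0.0038). MRPL3 (-0.67 ± 0.30), MRPS9 (-0.67 ± 0.30) and MRPL39 (-0.49 ± 0.26) also fell. Of 8 tested regulators of mitochondrial biogenesis 1 fell, NRF1, a transcription factor of respiratory genes (-0.41 ± 0.28, limma, adjusted p = 0.0467), while GABPA, GABPB1 and PPRC1 did not pass (-0.36, -0.31 and -0.20).

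Among the nuclear subunits of the complexes that the mitochondrial genes also serve, 0 of 35 of complex I, 0 of 9 of complex III and 0 of 11 of complex IV passed, and 1 of 17 of complex V, ATP5J2, fell (-0.49 ± 0.29, limma, adjusted p = 0.0276). NDUFS6 of complex I had the smallest p of its list (-0.40, limma, adjusted p = 0.0529). Complex II, which is wholly nuclear, had 0 of 4 called. The medians of these 5 lists were -0.19, -0.21, -0.12, -0.27 and -0.13 in the order complex I, III, IV, V and II. With an unadjusted p under 0.05 in limma were 3 genes of complex I, 2 of complex III, 1 of complex IV, 7 of complex V (6 lower and 1 higher) and 1 of complex II. Without the libraries labelled MDA-MB-453 no gene of any of the nuclear lists passed with limma. With any 1 line left out, at most 1 of the translation genes, 6 of the mitochondrial ribosomal proteins and 0 of the biogenesis regulators passed, where 9.37%, 14.5% and 1.45% of all genes tested passed without MDA-MB-231, without MDA-MB-436 and without the libraries labelled MDA-MB-453. The other lists are given in the closing section. Under median-ratio scaling, which moved the median of all genes from 0.05 to -0.03, 18 of the 78 mitochondrial ribosomal proteins passed instead of 9, while over all genes the lower calls came to 1151 instead of 557.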

How the data were processed

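The deposited table gives RPKM, read counts that the authors scaled by gene length and library total, for 58037 genes in 9 libraries (0 unused columns). Reads were aligned with STAR and counted with HTSeq on GRCh38, per the submitters' processing notes. Versions, gene annotation, strand setting and RNA selection are not stated there. Multiplied by gene length from GENCODE release 29, the RPKM of the mitochondrial genes are whole multiples of 1 step in every library (100% whole within 0.05 of a read), which gave the reads per library. That release holds all 37 identifiers with identical version numbers, and 92.5% of those of the whole table.

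Genes of at least 1 RPKM in at least 3 libraries (12965) were fitted as log2(RPKM + 1) in limma 3.58.1 (R 4.3.3) with label and line as terms and a mean-variance trend (4 residual degrees of freedom). P-values are two-sided and adjusted by Benjamini-Hochberg over those genes (threshold 0.05), and errors of log2 differences are half-widths of 95% intervals. Fold changes on this scale understate those of low genes. A second limma fit with a mean per line and state (Control, or GSK343 and shEZH2 together) tested by an F-test whether responses differ between lines. Its residual spread comes from the gap between the GSK343-labelled and shEZH2-labelled libraries of a line, not from replicates. Shares and ratios were tested by exact permutation: sign flips over 3 lines (smallest p 0.25), the control label moved within lines (27 arrangements, smallest p 0.037) and line labels moved within labels (216 arrangements, smallest p 0.0278). Same-numbered libraries are of the same line, which pairs them: deviations from group means correlated at 0.358 to 0.953 within lines and at -0.914 to 0.0903 between lines, across genes, which are not independent.

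The gene set, the nuclear lists and the alternatives were chosen with earlier results of these data known. All messenger and ribosomal RNAs are named, with the 6 most abundant transfer RNAs, up to 4 genes per list with the smallest p (1 of them is not reported here), TFAM, POLRMT, LRPPRC, SLIRP and EZH2. Alternatives were pseudocounts of 0.1 and 0.5, other filters, 3 scalings, other variance settings, no replicate block, 6 libraries only, and each library or line left out.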

Additional observations from a re-analysis of the deposited data

Results flagged for a closer look

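The share of mitochondrial genes was above the control in both labelled libraries of MDA-MB-231 and below it in both of MDA-MB-436. Both labelled libraries of a line are set against the same single control, so their signs are not independent. The control share was 14.0% in MDA-MB-231, the lowest of the controls, and 17.6% in MDA-MB-436, the highest. Averaged over the GSK343 and shEZH2 labels, the difference from the control was 9.25 percentage points higher in MDA-MB-231 than in MDA-MB-436 for all mitochondrial genes (5.28 in MDA-MB-231 and -3.97 in MDA-MB-436). For the protein genes alone it was 7.18 percentage points higher (3.23 in MDA-MB-231 and -3.96 in MDA-MB-436). This difference of shares was not tested.

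The same opposition held gene by gene for 6 of the 13 protein genes, MT-CO1, MT-CO2, MT-ND4L, MT-ND4, MT-ND5 and MT-ND6, each higher than the control in both labelled libraries of MDA-MB-231 and lower in both of MDA-MB-436. The F-test of limma for a response that differs between lines called 0 of the 31 mitochondrial genes tested, and 3 had an unadjusted p under 0.05.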

How the results depend on the processing

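Counts of called mitochondrial genes depended on the settings. For the GSK343 label the count was 1 without the variance trend (805 of all genes higher and 203 lower) and 2 with only the 6 libraries compared (878 and 249). For the shEZH2 label it was 0 without a filter on low values, 0 under median-ratio scaling and 3 with only the 6 libraries. For the mean of both it was 0 without the filter and 0 under median ratios. Of 36845 genes the fit without the filter called 15 higher and 0 lower for the shEZH2 label, and 160 higher and 26 lower for the mean. For the shEZH2 label 805 of all genes were higher and 620 lower under median ratios, and 1247 and 368 with only the 6 libraries. The main fit holds the line as a replicate block because lines pair the libraries. Without that block the mitochondrial count was 0 for the shEZH2 label and 0 for the mean. Of all 12965 genes only 2 were then called for the shEZH2 label and 3 for the mean, all higher. The mitochondrial count without the block was 1 for MDA-MB-453 minus MDA-MB-231 (1856 of all genes higher and 728 lower). It was 2 for MDA-MB-453 minus MDA-MB-436 (1748 and 1231). Between lines the mitochondrial counts were 2, 0 and 0 without the filter (MDA-MB-231 minus MDA-MB-436, MDA-MB-453 minus MDA-MB-231, MDA-MB-453 minus MDA-MB-436), 2, 0 and 3 with robust variances, and for the last of them 3 with a pseudocount of 0.1 and 4 under median ratios. Of all 36845 genes the fits without the filter called 4046, 1370 and 1482 higher and 5513, 405 and 927 lower in that order. With a library or line left out the mitochondrial counts ranged over 0 to 14 (GSK343), 0 to 3 (shEZH2), 0 to 7 (mean of both) and 0 to 1 (GSK343 against shEZH2). With a library left out they ranged over 4 to 14 (MDA-MB-231 minus MDA-MB-436), 0 to 6 (MDA-MB-453 minus MDA-MB-231) and 0 to 7 (MDA-MB-453 minus MDA-MB-436). Uncalled log2 differences turned negative for MT-ND2 (-0.052 under median ratios, -0.0052 with a common sum) and MT-ATP6 (-0.10, -0.054 and -0.00078 with the nuclear sum) under the GSK343 label, and under median ratios for MT-CO1 (-0.060), MT-ND4L (-0.045) and MT-ND4 (-0.071) under the shEZH2 label. Signs also turned with a library or line left out, over ranges of -0.23 to 0.41 for MT-ND2, -0.074 to 0.52 for MT-ATP8, -0.25 to 0.37 for MT-ATP6, -0.29 to 0.22 for MT-CO3, -0.30 to 0.31 for MT-ND3 and -0.0061 to 0.71 for MT-ND5 under the GSK343 label. Under the shEZH2 label they were -0.36 to 0.23 for MT-ND1, -0.16 to 0.29 for MT-CO1, -0.30 to 0.19 for MT-CO2, -0.17 to 0.24 for MT-ND4L, -0.20 to 0.33 for MT-ND4, -0.35 to 0.24 for MT-ND5, -0.41 to 0.26 for MT-ND6 and -0.37 to 0.039 for MT-CYB. The share of the ribosomal RNAs alone was 0.786 points above the control for the shEZH2 label and 0.814 for the mean. The difference for all mitochondrial genes ranged over -2.70 to 0.769 for the shEZH2 label with a library or line left out. It ranged over -1.04 to 3.58 for the mean with a line left out. For MDA-MB-231 minus MDA-MB-436 it ranged over -0.118 to 5.66 with a library left out. For the log2 ratios only lines were left out. MT-ND6 to the other messenger RNAs then ranged over -0.017 to 0.27 (GSK343), -0.048 to 0.13 (shEZH2), -0.021 to 0.14 (GSK343 against shEZH2) and -0.0073 to 0.20 (mean of both). MT-RNR2 to MT-RNR1 ranged over -0.29 to 0.35, -0.33 to 0.021 and -0.31 to 0.19 (GSK343, shEZH2, mean of both). Ribosomal to messenger RNAs ranged over 0.38 to 0.85 (mean of both). From class medians, that last ratio was -0.037 for MDA-MB-453 minus MDA-MB-436. Over all genes the mean of both labels had 1149 higher and 1151 lower under median ratios, and 3 higher and 0 lower without the replicate block. Calls in the nuclear lists under median ratios were 5 (transcription and DNA maintenance), 5 (RNA processing), 8 (translation), 18 (mitochondrial ribosomal proteins), 2 (complex I), 1 (complex II), 1 (complex III), 3 (complex V) and 0 (nuclear copies), and without the replicate block 0 in every list. With a line left out they ranged over 0 to 2 (transcription and DNA maintenance), 0 to 1 (RNA processing), 0 to 1 (translation), 0 to 6 (mitochondrial ribosomal proteins), 0 to 0 (biogenesis), 0 to 1 (complex IV), 0 to 2 (complex V) and 0 to 4 (nuclear copies). The cause of these shifts was not tested. Library depth limits the transfer RNAs most, with 0 to 6 reads for MT-TW, 1 to 6 for MT-TS2 and 3 to 28 for MT-TE per library.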

Other observations

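Some transfer RNAs stood apart from the genes around them in single libraries. MT-TE, the glutamate transfer RNA on the minus strand between MT-ND6 and MT-CYB, had 27.5, 3.5 and 2.83 RPKM in line order in the GSK343-labelled libraries, 3.17, 8.14 and 8.72 RPKM in the shEZH2-labelled libraries and 10.4, 19.9 and 21.6 RPKM in the controls (3 to 28 reads per library), so that of the 6 labelled libraries only MDA-MB-231 under the GSK343 label was above its control. Its log2 difference for the mean of both labels was -1.22 ± 1.18 and did not pass (limma, adjusted p = 0.14). MT-TI, next to MT-ND1, had 48.1, 27.1 and 55.7 RPKM, 15.9, 29.3 and 27.02 RPKM and 22.5, 50.1 and 57.6 RPKM under the GSK343, shEZH2 and Control labels, while MT-ND1 was above its control in MDA-MB-453 under the shEZH2 label.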
